A study of Mus musculus with 68 samples.

Results

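The genes described here encode the proteins of the cytosolic ribosome, 75 of the 13378 genes listed in the founder or F1 tables. Members were taken by symbol: every listed protein-coding gene named Rpl or Rps followed by a number (with an a, x, l or y ending allowed), with Rpsa, Rplp0, Rplp1 and Rplp2. The annotation holds 80 such symbols, and Rpl10l, Rpl13, Rpl24, Rpl3l and Rpl41 were not analysed here. Of the members, 44 belong to the large subunit and 31 to the small subunit, and all 75 were listed in both sets of tables.

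Every ribosome carries one copy of most of these proteins, so the genes are transcribed at high and matched levels in growing cells. Their mRNAs open with a terminal oligopyrimidine (TOP) tract, an unbroken run of C and T at the transcript start through which mTOR signaling and LARP1 set their translation. During endoplasmic reticulum (ER) stress, the kinase PERK slows translation, and the study asked how far the transcriptional response to it depends on genotype.

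Primary mouse embryonic fibroblasts (MEFs) were exposed for 4 h to tunicamycin (TM; 2 ug/ml), which blocks N-glycosylation and causes misfolded proteins to collect in the ER, or to the DMSO vehicle as control. The 8 founder strains of the Collaborative Cross were 129S1Sv/ImJ (129), A/J (A), C57BL/6J (B6), CAST/EiJ (CAST), NOD/ShiLtJ (NOD), NZO/H1LtJ (NZO), PWK/PhJ (PWK) and WSB/EiJ (WSB), and the 5 F1 crosses (x129, xCAST, xNOD, xNZO and xWSB) each had a B6 mother and a father of the named strain. The cells of each genotype were a mixture from several female embryos of a single litter, and nothing says that replicates came from separate preparations, so p-values measure only the spread between these samples, which may be technical. Each genotype and treatment kept 2 or 3 libraries after the authors removed outlying ones, giving 40 founder and 28 F1 libraries.

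The deposited value of a gene is its number of reads over the scaled library size, with no division by gene length. Reads assigned to genes ranged from 7091923 to 21530282 in the 38 founder libraries, and from 6442976 to 29528457 in the 28 F1 libraries, for which they could be recovered, and 241371 to 1703976 of them fell on the members. The ER chaperone gene Hspa5 rose by 2.82 ± 0.07 (log2, SE) over the founders and 2.90 ± 0.06 over the F1 crosses, and the other 4 ER stress genes tested (Ddit3, Herpud1, Atf4 and Trib3) rose in both sets. All 10 fibroblast markers were detected, led by Fn1. The summed value of the 9 listed myeloid markers, led by Lyz2, was 8.53 to 69.2 in founder controls and 7.44 to 55.7 under TM. Of these, 7 reached a mean of 0.5, and Adgre1 and Tyrobp did not. Epithelial markers, led by Krt19, summed to 32 to 132 in founder controls and 23.8 to 118 under TM. Endothelial markers, led by Kdr, summed to 3.11 to 22 and 2.4 to 11.3. Summed proliferation markers overlapped between treatments (379 to 849 in founder controls and 421 to 876 under TM). The part of these other cells in the results below was not tested.

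The start of the transcript is shown for members on which the results turn, because the TOP tract is the feature these mRNAs are known for. Each window covers 10 bases before and 20 bases after the RefSeq start on GRCm38, and capitals mark the longest unbroken run of C and T.
Rps6, chr4:86857348-86857377, minus strand: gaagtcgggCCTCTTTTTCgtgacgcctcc
Rpl28, chr7:4792955-4792984, plus strand: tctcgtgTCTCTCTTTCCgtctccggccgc
Rpl10a, chr17:28328461-28328490, plus strand: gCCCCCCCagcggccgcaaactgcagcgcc
Rps28, chr17:33824543-33824572, minus strand: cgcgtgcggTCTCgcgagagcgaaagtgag
Rpl37, chr15:5116603-5116632, plus strand: CCTgggcggaagcttatccacaggaagtgg
Rpl39l, chr16:10170218-10170247, plus strand: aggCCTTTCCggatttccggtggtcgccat
A start was matched for 55 members. A run of 8 or more C or T lay in the window of 20 of these (36.4%), against 11.2% of all 27025 start windows searched. For members the start nearest the annotated gene start was taken. For all genes it was the first listed start of each symbol, in the tables or not, so the shares rest on unlike choices. Rps6 and Rpl28 carry such a run, while Rpl10a, Rps28, Rpl37 and Rpl39l show none at the start RefSeq gives. Members that fell under TM stand in both groups (Rpl28 with a run, Rps28 and Rpl37 without). The absence of a run says only that these letters are not in this window.

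Members are short genes. Their coding length ranged from 153 to 1257 nucleotides with a median of 453, against 1395 over all protein-coding genes with a coding length, while their GC content (median 50.7%, range 41.3 to 60.8%) sat near that of all genes (50.5%). Processed pseudogenes copy many of them. For 40 of the 75 members, at least 50% of the 100-base windows of the transcript matched another annotated gene within 3 mismatches (median over members 52.9%), so the count of reads on these genes could depend on how reads with several matches were treated. Rpl39l shared no window.

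Per kilobase of coding length, the highest members in B6 control MEFs were Rplp1, the acidic stalk protein (4464 per kilobase), Rps12 (2666) and Rplp0, the base of the stalk (2465). The lowest were Rpl22 (552), Rps27l (423) and Rpl39l (92.6). Together the members took 4.04 to 6.23% of the deposited value in founder controls (median 4.62%, 18 libraries) and 3.10 to 7.72% under TM (median 4.53%, 22 libraries). In the F1 crosses the shares were 3.75 to 7.89% (median 4.61%) and 3.70 to 7.503% (median 4.82%), with 14 libraries in each treatment. Within genotypes the shares of the treatments overlapped in 10 of 13. The TM libraries lay below the controls in CAST (4.18 to 4.52% against 4.60 to 5.61%) and above them in WSB (4.54 to 6.05% against 4.04 to 4.42%) and xNOD (5.76 to 7.503% against 4.23 to 4.68%). Libraries of one group could also lie far apart, as in A under TM (3.59, 4.90 and 7.72%) and xWSB control (3.75, 4.06 and 7.89%).

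**Figure D1:**
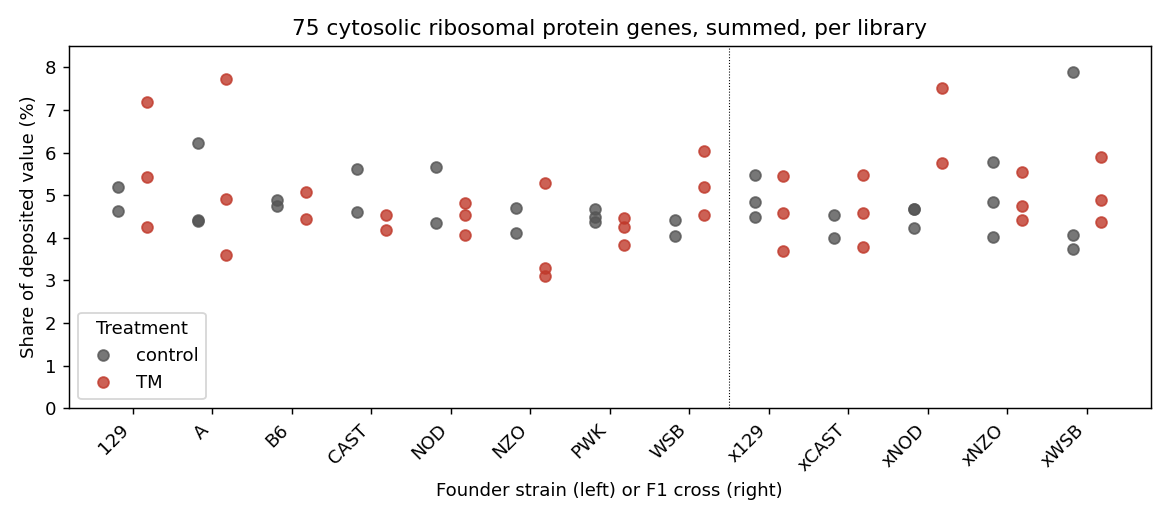
Share of the summed deposited value taken by the 75 cytosolic ribosomal protein genes (vertical axis, percent) in each of 68 libraries, by founder strain and F1 cross, with controls in grey and TM in red. Control and TM libraries overlap in most genotypes, and single libraries of A (7.72%) and xWSB (7.89%) stand far above the others of their group.

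The members of a library moved together. In 27 of 40 founder libraries and 21 of 28 F1 libraries, more than 60 of the 75 members lay on the same side of their group's mean (in groups of 2, the libraries mirror each other by construction). The median member deviated in the same direction as the other genes of coding length under 450 nucleotides in 36 of 40 founder and 25 of 28 F1 libraries, and in the same direction as the 76 mitochondrial ribosomal protein genes in 37 of 40 and 25 of 28. The median residual SD of the members was 0.32 (log2) in the founders, against 0.26 over all genes, and 0.35 against 0.24 in the F1 crosses. After the dependence of each library on GC content and transcript length was removed, it was 0.16 against 0.20 in the founders and 0.17 against 0.19 in the F1 crosses.

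Averaged over the 8 founder strains, few ribosomal protein genes passed the test for a change under TM. The median change of the 75 members was -0.08 (log2), beside -0.04 over all 13197 genes tested. Of the members, 1 was raised and 5 were lowered at an adjusted p below 0.01 (limma, Benjamini-Hochberg), where 42.3% of all genes tested were called (20.5% higher, 21.9% lower). Averaged over the 5 F1 crosses, the median was 0.04 beside -0.04 over all 12803 genes, with 5 members raised and 1 lowered and 35.6% of all genes called (16.9% higher, 18.7% lower). The founder and F1 libraries are separate, and the mean changes of the 75 members in the 2 sets had a Pearson r of 0.79 and a Spearman rho of 0.78 across genes, which are not independent replicates and share their length and base composition between the sets. The change was positive in both for 23 members, negative in both for 30, and of opposite sign for 22.

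Rpl3, a large subunit protein next to the peptidyl transferase center (ENSMUSG00000060036; GRCm38 chr15:80077791-80091868), was the member called higher in both sets. Its value in founder controls ran from 837 to 1769 with a median of 1006, and under TM from 918 to 2059 with a median of 1218. The ranges overlap, and within strains the mean rose in 8 of 8. The mean change was 0.34 ± 0.08 (log2, SE; 1.26-fold; adjusted p = 0.00131, limma) in the founders and 0.42 ± 0.08 (1.34-fold; adjusted p = 0.000103) in the F1 crosses, where it was higher in 5 of 5. Leaving out any 1 library kept its change between 0.30 and 0.37 in the founders and between 0.39 and 0.47 in the F1 crosses. With the replicate number as a block, no member was called in the founder mean (11.8% of all genes higher, 10.8% lower), Rpl3 included. The replicate numbers did not pair the libraries.

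Rpl28, another large subunit protein (ENSMUSG00000030432; chr7:4792874-4795066), moved the other way. Founder controls ran from 339 to 572 (median 505) and TM libraries from 293 to 805 (median 390), the highest of these being the A library in which all 75 members were high. The mean change was -0.33 ± 0.08 (log2, SE; adjusted p = 0.00184, limma) over the founders and -0.34 ± 0.13 (adjusted p = 0.0405) over the F1 crosses. Rpl3 and Rpl28 were the 2 members whose mean change had the same sign in all 13 genotypes, Rpl3 higher and Rpl28 lower.

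The other members lowered in the founders were Rps29, Rps28, Rpl37 and Rps21, all with short coding sequences (168 to 291 nucleotides). Rps29 and Rpl37 are zinc-binding proteins of the small and large subunit. Rps29 (ENSMUSG00000034892; chr12:69157722-69159186) had a median of 377 in founder controls (range 310 to 435) and of 265 under TM (range 100 to 435). Its mean change was -0.70 ± 0.15 (log2, SE; 0.615-fold; adjusted p = 0.00029, limma). Rps28 changed by -0.68 ± 0.19 (adjusted p = 0.00312), Rpl37 by -0.53 ± 0.12 (adjusted p = 0.000631) and Rps21 by -0.50 ± 0.13 (adjusted p = 0.00156), and each was lower in 8 of 8 strains. In the F1 crosses the same 4 genes were lower in 4 of 5 crosses without passing the threshold, with changes of -0.49 ± 0.19 (Rps29, adjusted p = 0.0352), -0.30 ± 0.20 (Rps28, adjusted p = 0.215), -0.33 ± 0.17 (Rpl37, adjusted p = 0.109) and -0.35 ± 0.17 (Rps21, adjusted p = 0.0947).

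The size of this fall went with the replicate number of the library, a pattern seen only after the values were examined and not tested. In the 8 founder TM libraries numbered 3, Rps29 ran from 301 to 390, overlapping the controls pooled over strains. Within strains, 7 of these 8 libraries lay below the mean of their controls. The 14 TM libraries numbered 1 or 2 had a median of 181 and a range of 100 to 435. The median change against the controls of the same strain was -0.30 (log2) in the former and -1.11 in the latter, and for Rps28 it was -0.06 against -1.20. The median changes were closer for Rpl28 and Rpl3, at -0.38 and -0.42 for Rpl28, and 0.36 and 0.22 for Rpl3. Founder TM libraries numbered 3 were deeper at the median, with 17129374 reads on genes against 9941887, and whether depth, or a day or preparation shared by a number, took part in the difference was not tested. With only the TM libraries numbered 3 kept, Rps29 changed by -0.23 (adjusted p = 0.00795, limma), Rpl37 by -0.18 (adjusted p = 0.0198), Rps21 by -0.21 (adjusted p = 0.0299) and Rps28 by -0.03 (adjusted p = 0.749). With those libraries left out, the 4 changes were -0.99, -0.74, -0.68 and -1.06, all called, and 11 members were lowered in all (21.5% of all genes).

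**Figure D2:**
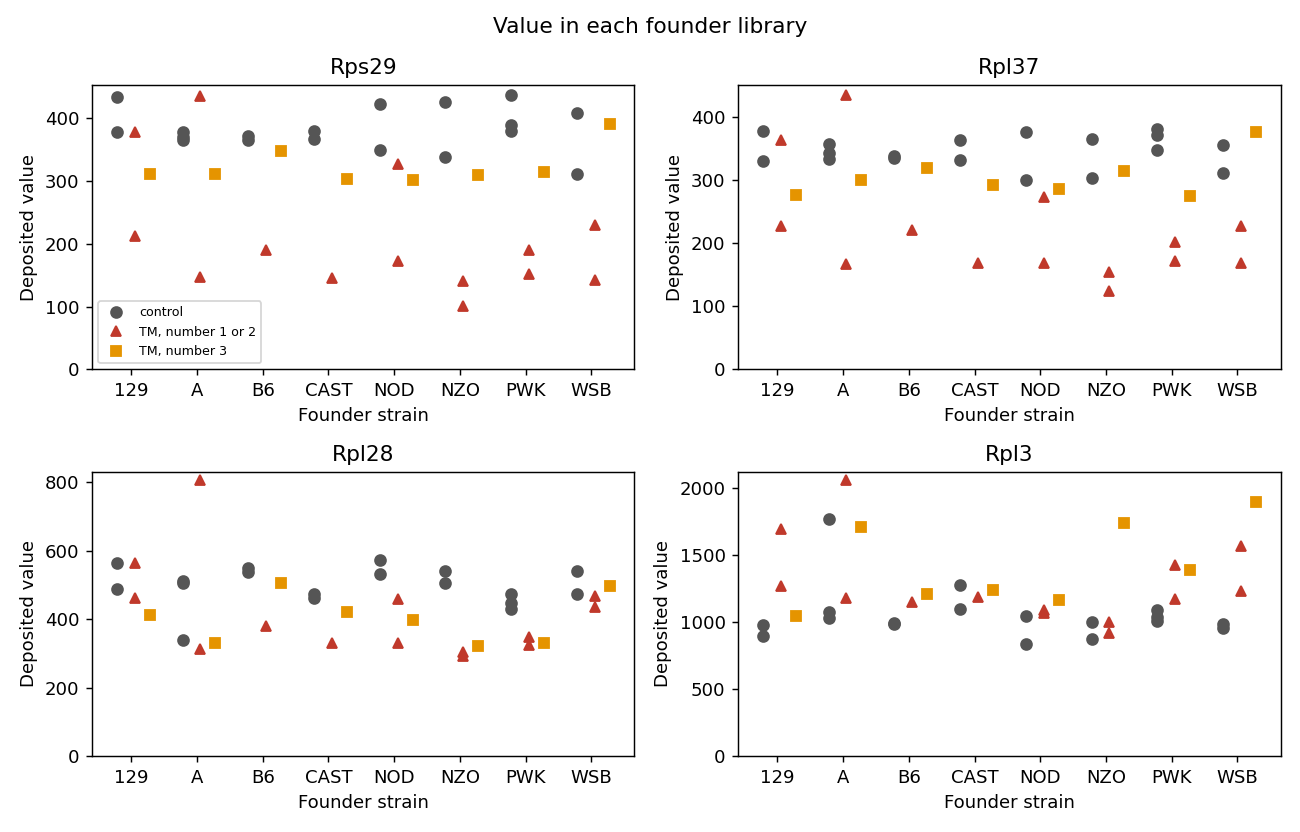
Deposited value (vertical axes, from 0) of Rps29, Rpl37, Rpl28 and Rpl3 in every founder library, by strain, with controls as grey circles, TM libraries numbered 1 or 2 as red triangles and TM libraries numbered 3 as orange squares. For Rps29 and Rpl37 the orange squares lie near the controls (301 to 390 for Rps29) while most red triangles lie far below. For Rpl28 and Rpl3 the triangles and squares mix with each other. In some strains, PWK among them, both lie apart from the controls, lower for Rpl28 and higher for Rpl3, and in others they overlap the controls.

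Across members, shorter coding sequences went with lower values of the change under TM. The 10 members under 300 nucleotides had a median change of -0.31 (log2) in the founders, the 16 from 300 to under 400 nucleotides -0.13, the 29 from there to under 600 nucleotides -0.08, the 17 from there to under 900 nucleotides 0.09 and the 3 of 900 or more 0.17. In the F1 crosses the medians of these classes, from shortest to longest, were -0.12, 0.06, 0.0021, 0.19 and 0.26, out of order in the middle. The Spearman rho between change and coding length over the 75 genes was 0.53 in the founders and 0.42 in the F1 crosses, both from libraries that the genes share. Among other genes, the 234 under 300 nucleotides had a median of -0.14 in the founders and the 224 in the F1 crosses -0.01, and those of 900 or more -0.04 and -0.07. The rho with GC content was negative, at -0.33 in the founders and -0.15 in the F1 crosses.

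**Figure D3:**
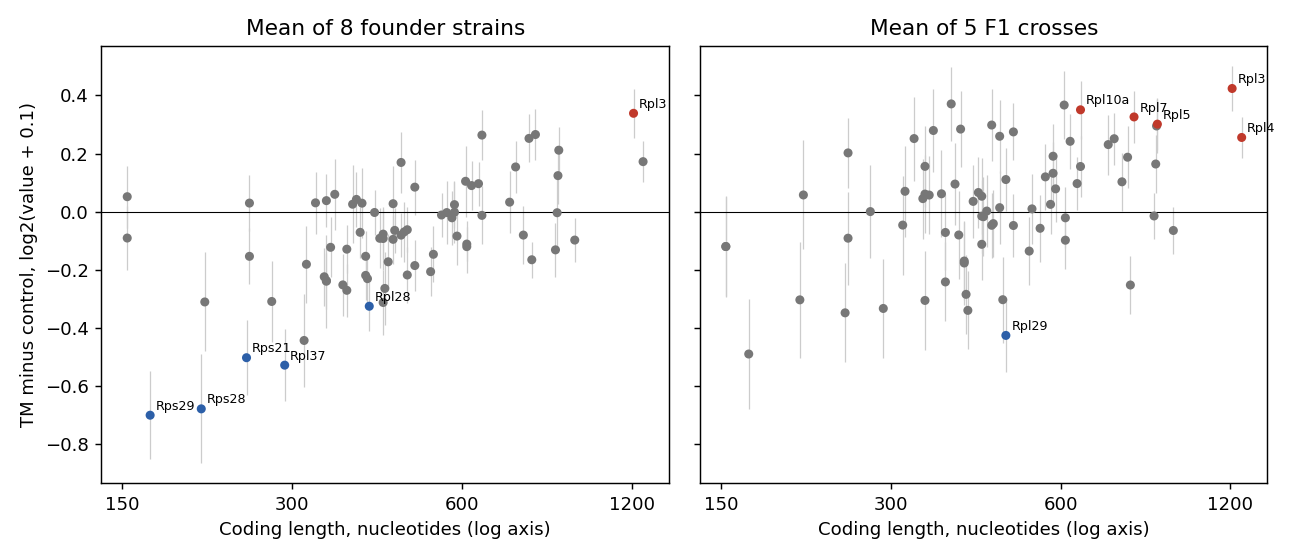
Mean TM effect on each of the 75 genes (vertical axes, TM minus control on the log2(value + 0.1) scale, bars are 1 SE) against coding length in nucleotides (horizontal log axes), for 8 founder strains on the left and 5 F1 crosses on the right. Red and blue points are called higher and lower at an adjusted p below 0.01 and grey points are not, and short genes such as Rps29 lie lowest while Rpl3 lies highest in both panels.

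Removing the dependence of each library on GC content and transcript length lowered the spread between libraries and raised the number of members called. Over all genes, the share called went from 42.3% to 38.5% in the founders and from 35.6% to 37.3% in the F1 crosses. In the corrected fits 6 members were raised and 18 lowered in the founders (18.8% and 19.7% of all genes), and 9 were raised and 14 lowered in the F1 crosses (17.2% and 20.1% of all genes). Rpl3, Rpl10a and Rpl18 were among the members raised in both sets, which made up 66.7% of the founder list and 44.4% of the F1 list. Lowered in both were 11 members (61.1% and 78.6% of the lists), among them Rps29, Rpl37, Rps21, Rpl28, Rpl31, Rps26 and Rpl15. None was called in opposite directions. The overlap of calls over all genes was not counted, so these shares cannot be read as particular to the members. The corrected median change was -0.06 in the founders and -0.0057 in the F1 crosses. The rho with coding length was 0.56 and 0.41 after the correction, and that with GC content turned positive, at 0.40 and 0.26. Other genes under 300 nucleotides also stayed low after it, with medians of -0.15 in the founders and -0.13 in the F1 crosses. Those of 900 or more stood at -0.02 and -0.04, so a trend with length remained and was not particular to the members. The correction took length and GC content from a single annotated transcript per gene.

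The F1 crosses called 4 further large subunit genes higher: Rpl10a (0.35 ± 0.10, log2 and SE; adjusted p = 0.00606, limma), Rpl7 (0.33 ± 0.09; adjusted p = 0.00465), Rpl5 (0.30 ± 0.09; adjusted p = 0.00768) and Rpl4 (0.26 ± 0.07; adjusted p = 0.00492). Each was higher in 5 of 5 crosses. In the founders the values were 0.26 ± 0.09 (Rpl10a, adjusted p = 0.0121), 0.27 ± 0.09 (Rpl7, adjusted p = 0.0123), 0.21 ± 0.08 (Rpl5, adjusted p = 0.0293) and 0.17 ± 0.07 (Rpl4, adjusted p = 0.0432). Rps4x, a small subunit protein encoded on the X chromosome, was higher in 8 of 8 founder strains (0.25 ± 0.08, adjusted p = 0.0112). Rpl29 was the member lowered in the F1 crosses (-0.43 ± 0.13; adjusted p = 0.00806), and it stood at -0.22 ± 0.10 in the founders (adjusted p = 0.0592). Leaving out 1 F1 library at a time lost the call of Rpl29 in 21 of 28 cases (range -0.52 to -0.33), of Rpl5 in 17, of Rpl10a in 11, of Rpl4 in 4 and of Rpl7 in 2. After the GC and length correction Rpl10a and Rpl29 passed the threshold in the F1 crosses, whereas Rpl4 (0.10 ± 0.05, adjusted p = 0.103), Rpl7 (0.10 ± 0.06, adjusted p = 0.138) and Rpl5 (0.0095 ± 0.08, adjusted p = 0.927) did not (limma). Rpl36, a short large subunit gene, stood at -0.44 ± 0.16 in the founders (adjusted p = 0.0214) and -0.05 ± 0.17 in the F1 crosses.

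Most members known for work outside the ribosome did not pass the test. Rps6, the subunit phosphorylated by S6 kinase, had a median of 808 in founder controls and 895 under TM, a mean change of 0.15 ± 0.09 (adjusted p = 0.149, limma) and of 0.25 ± 0.09 in the F1 crosses (adjusted p = 0.0236). Rpl5 and Rpl11 form the particle that binds Mdm2, and Rpl11 stood at -0.15 ± 0.10 in the founders and 0.01 ± 0.12 in the F1 crosses. Rplp0 stood at -0.10 ± 0.07 and -0.06 ± 0.08, and its stalk partner Rplp1 at -0.22 ± 0.10 and 0.05 ± 0.14. Rpsa, also known as the laminin receptor, was at -0.0036 ± 0.12 in the founders and 0.16 ± 0.10 in the F1 crosses. Rps27a, made as a fusion with ubiquitin, was at 0.17 ± 0.10 and 0.26 ± 0.13. Rps27l, a p53-responsive copy of Rps27, was at 0.03 ± 0.10 and 0.20 ± 0.12. Rps3, which also has DNA repair activity, was at 0.03 ± 0.11 and 0.23 ± 0.10, Rpl13a, known for silencing of inflammatory mRNAs, at 0.10 ± 0.12 and 0.37 ± 0.12, and Rpl22 at 0.03 ± 0.13 and 0.37 ± 0.13. Of these, Rpl5 passed an adjusted p of 0.01 in the F1 crosses (limma).

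Taken one at a time, genotypes differed in the direction of their calls. At an adjusted p below 0.05 within a genotype and no limit on size, 53 calls of a raised member and 41 of a lowered member were made over the 13 genotypes, covering 52 members. In xNOD 35 members were raised and 0 lowered, beside 14% and 17.2% of all genes, and the median change of the members was 0.49 (log2). In WSB 12 were raised and 0 lowered (8.57% and 9.99% of all genes; median 0.21). In PWK 1 was raised and 17 lowered (15.1% and 14.8% of all genes; median -0.15), and in B6 5 were raised and 12 lowered (16.9% and 16.1%; median -0.09). In x129 6 were lowered (9.18% of all genes), in CAST 3 (4.55%), in NZO 2 (0.413%) and in xCAST 1 (5.76%), and none was raised in these. No member was called in 129 (2.34% of all genes higher, 0.386% lower), A (1.06%, 0.102%), NOD (3.67%, 1.23%), xNZO (4.36%, 1.68%) or xWSB (0.516%, 0.0644%). The members' residual SD within these ran up to 0.53. Of all genes, 7.32% were raised in CAST, 2% in NZO, 13.1% in x129 and 6.23% in xCAST.

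**Figure D4:**
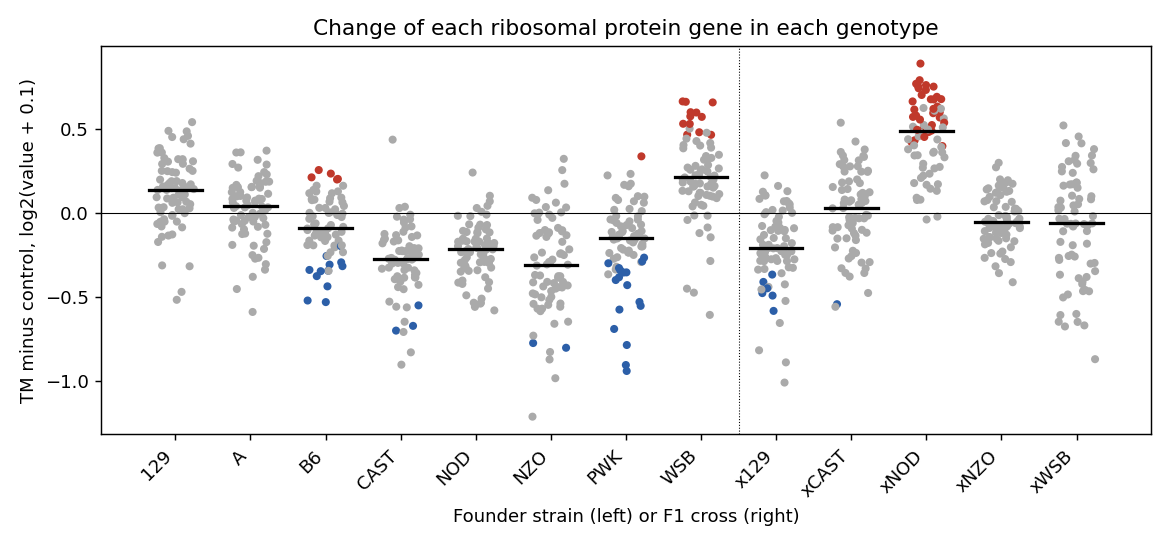
TM minus control (vertical axis, log2(value + 0.1) scale) for each cytosolic ribosomal protein gene in each of 13 genotypes, with the median as a black line and genes called higher or lower at an adjusted p below 0.05 in red and blue. The medians run from -0.31 in NZO to 0.49 in xNOD, and the calls are upward in WSB and xNOD, downward in x129, CAST and NZO, and downward but for 1 in PWK.

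At the stricter rule (adjusted p below 0.01 and 1.5-fold), 7 members were raised in xNOD (3.69% of all genes): Rpl12, Rpl13a, Rpl22, Rpl35a, Rps14, Rps20 and Rps24, by 1.60 to 1.73-fold. Rpl13a was at 858, 868 and 808 in the 3 controls and 1541 and 1330 in the 2 TM libraries. Rpl22 was at 169, 174 and 147 in the controls and 262 and 283 under TM. The TM libraries lay above all controls for both genes. The member share was also higher in both of these TM libraries (7.503 and 5.76%) than in the controls (4.23 to 4.68%), and after the GC and length correction none of the 7 passed the rule. Without any 1 of the 3 controls 0 members passed it in xNOD (0.105 to 0.153% of all genes raised), and without the TM library numbered 2, which leaves 1 TM library, 48 did (8.78%). In PWK 3 members were lowered (4.3% of all genes): Rps29, Rpl37 and Rps21. Rpl37 was at 371, 380 and 347 in PWK controls and 202, 172 and 275 under TM, a change of -0.78 ± 0.14 (adjusted p = 0.000789, limma), and Rps21 was at 438, 371 and 353 in the controls and 226, 205 and 295 under TM. The groups did not overlap for either gene, and the TM library numbered 3 was the highest of the 3 in each. The PWK count at this rule was 0 without the control numbered 1 (2.37% of all genes lowered), 1 without the TM library numbered 2 (3.3%) and 8 without that numbered 3 (5.62%), and without a trended prior it was 0, as was the xNOD count. The share of all genes called is not given for the fits without a trended prior or for the corrected fit of xNOD. Those counts do not tell a change in the members from a change in all genes. No other genotype had a member called at this rule, and no member was lowered in xNOD or raised in PWK. The shares of all genes called higher and lower were 0.315% and 0.00787% in 129, 0.346% and 0.00786% in A, 5.04% and 3.22% in B6, 2.54% and 0.478% in CAST, 1.45% and 0.165% in NOD, and 0.32% and 0.0078% in NZO. They were 2.85% and 4.2% in WSB, 4.88% and 1.36% in x129, 2.52% and 1.2% in xCAST, 1.44% and 0.152% in xNZO, and 0.185% and 0.0161% in xWSB, with 6.36% higher in PWK and 4.6% lower in xNOD.

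The difference in response between genotypes did not pass its own test for any member. The genotype by treatment interaction called 0 of 75 members at an adjusted p below 0.01 in the founders and 0 in the F1 crosses (limma), beside 0.174% and 0.0547% of all genes. At an unadjusted p below 0.05, 0 members passed in either set, by limma and by edgeR, against 3.91% and 6.15% of all genes by limma. The smallest unadjusted p of a member in the founders was 0.285 (Rpl23a), followed by 0.295 (Rpl15), 0.337 (Rps26), 0.401 (Rpl21) and 0.405 (Rpl28). The count was also 0 after the GC and length correction (0.439% and 0.203% of all genes). Without the correction, the members' residual SD was above that of all genes (0.32 against 0.26 in the founders, 0.35 against 0.24 in the F1 crosses). The lack of calls therefore does not show an equal response in all genotypes.

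Leaving out 1 library moved the counts of single genotypes and the shares of all genes with them. A genotype with 2 libraries in a treatment is then left with 1, and that lone library is assumed to vary like those of the other treatment. This holds for the counts given here without a control of B6, CAST, NOD or WSB and without a TM library of B6 or xNOD. At the 0.05 limit NZO had 69 lowered members without the TM library numbered 3, in place of 2, beside 26.4% of all genes. In xNOD 69 members were raised without the TM library numbered 2 (21.9% of all genes), in place of 35, and 7 or 8 without any 1 control (4.56 to 4.68%). B6 had 39 lowered members without the TM library numbered 3 (16.8% of all genes), 19 raised without that numbered 1 (15%), and 0 called without the control numbered 3 (9.01% higher, 7.28% lower). Without the control numbered 3, CAST had 60 lowered members in place of 3 (14.5% of all genes) and NOD had 48 in place of 0 (9.15%). WSB had 0 raised members without the control numbered 2 (2.45% of all genes), 1 without that numbered 3 (5.38%) and 4 without the TM library numbered 1 (4.66%). In PWK the 17 lowered members became 27 without the TM library numbered 3 (17.1% of all genes), 6 without that numbered 2 (10.5%), and 8 and 11 without the controls numbered 1 and 2 (8.72% and 9.82%). In x129 the 6 lowered members became 19 without the TM library numbered 1 (7.12% of all genes) and 1 to 3 without any 1 control (2.46 to 5.85%), and in xCAST the 1 became 7 without the TM library numbered 3 (12.6%). In 129, 8 members were raised without the TM library numbered 3 (10.3% of all genes), and in xNZO 4 were lowered without the control numbered 3 (5.56%). Without the A TM library numbered 2, 18 members were lowered in the founder mean in place of 5 (23.6% of all genes). Left out together, the 5 libraries whose other short genes stood over 0.25 (log2) from their group (129 TM 1, A TM 1 and 2, and xWSB control 1 and 3) changed the founder counts to 2 raised and 18 lowered (20.3% and 22.5% of all genes) and the F1 counts to 11 raised and 0 lowered (17.8% and 19.7%).

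Rpl39l was the only member called for a basal difference between genotypes by limma without the GC and length correction. It is a copy of Rpl39, a small protein lining the exit tunnel, best known from the testis. The gene (ENSMUSG00000039209; chr16:10170226-10174911, plus strand) was the lowest of the members and shared no 100-base window with another gene. In founder controls its value was 15.4 and 13.02 in 129, 14.3 and 14.1 in B6, 14.2 and 11.04 in NOD, and 8.68 and 7.69 in WSB. It was 8.60, 8.41 and 7.01 in PWK, 6.74 and 6.55 in NZO, and 5.38, 5.16 and 2.78 in A. In CAST it was 0.777 and 0.577 (15 and 7 reads), below every library of the other founders and 20.9-fold under the mean of B6. The neighbours 129, B6 and NOD overlapped, as did PWK and WSB, whereas A, NZO and CAST were each separate. The basal strain effect was called for Rpl39l in the founders (adjusted p = 4.6e-11, limma) and for no other member, beside 37.2% of all genes.

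The F1 crosses spread as widely, although levels were not set against the founders because the scaled library sizes of the F1 crosses also hold reads of no gene. Rpl39l was at 13.8, 13.04 and 12.001 in xNOD controls, 14.2, 8.62 and 8.83 in xNZO, and 6.78, 6.35 and 5.73 in x129. It was at 3.18 and 2.61 in xCAST and at 0.726, 0.206 and 0.125 in xWSB. The xWSB values rest on 7, 3 and 1 reads in the controls and on 2, 2 and 4 reads under TM, and Rpl39l failed the filter on low values in that cross. Among founders, WSB lay in the middle of the order. The basal cross effect was called for Rpl39l and for no other member, beside 24.8% of all genes.

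The TM effect on Rpl39l did not pass the test. The mean change was 0.05 ± 0.11 (log2, SE; adjusted p = 0.706, limma) in the founders and -0.12 ± 0.17 (adjusted p = 0.578) in the F1 crosses. Its parent gene Rpl39 (chrX:37082520-37085402) was listed far higher and was not called for a basal strain effect (adjusted p = 0.81), with control means between 213 ± 34.8 (SD, n = 3, A) and 321 ± 92.4 (SD, n = 2, NOD) and a change under TM of -0.09 ± 0.11. Of the next members by basal p in the founders, Rpl29 had an adjusted p of 0.0722, Rpl21 of 0.131, Rpl12 of 0.21 and Rps27l of 0.269. After the GC and length correction 7 members were called in the founders (Rpl12, Rpl21, Rpl23a, Rpl30, Rpl39l, Rps2 and Rps27l; 50% of all genes) and 4 in the F1 crosses (Rpl30, Rpl39l, Rps2 and Rps27l; 34.5% of all genes).

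**Figure D5:**
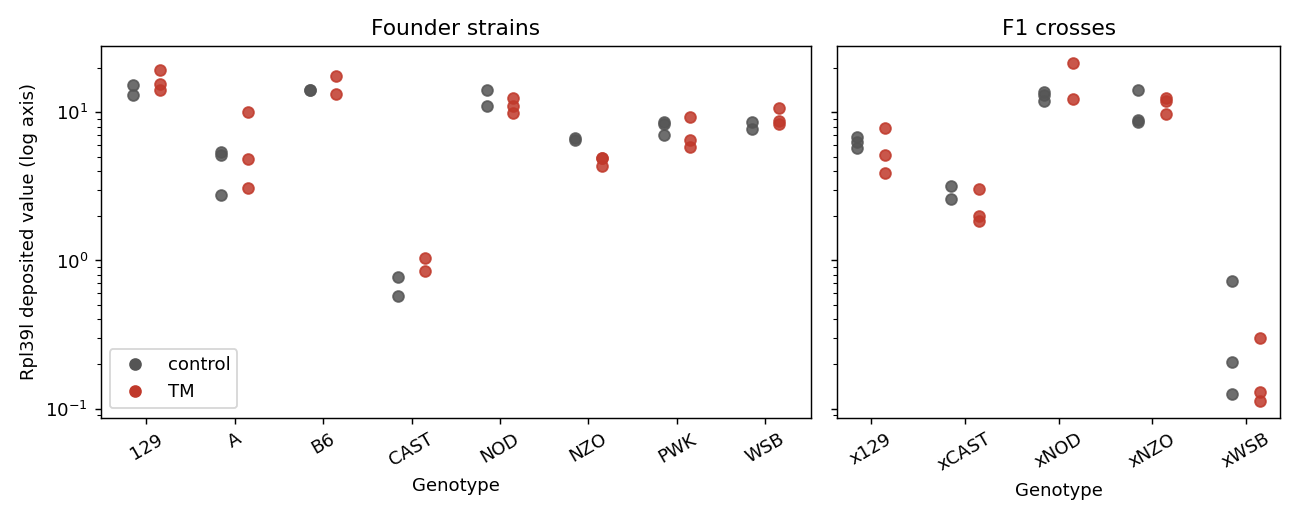
Deposited value of Rpl39l (vertical log axis) in every library, for the founder strains on the left and the F1 crosses on the right, controls in grey and TM in red. CAST (0.577 to 0.777 in controls) and xWSB (0.125 to 0.726) lie far below the other genotypes. The treatments overlap within each genotype except CAST (TM above the controls) and NZO (TM below the controls).

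Lists of genes that build or regulate the ribosome are given for comparison, beside a median change over all genes of -0.04 in both sets and, at the adjusted p of 0.01, 20.5% of all genes higher and 21.9% lower in the founders and 16.9% and 18.7% in the F1 crosses. Of 40 ribosome assembly factors, 19 were raised and 1 lowered in the founders (median 0.19, log2) and 17 raised and 1 lowered in the F1 crosses (median 0.21). The largest founder changes were those of Gnl3 (nucleostemin, 0.75 ± 0.05), Nmd3 (the export adaptor of the large subunit, 0.75 ± 0.06) and Nop58 (a core box C/D snoRNP protein, 0.69 ± 0.05). Of 12 genes of RNA polymerase I and its factors, 5 were raised and 1 lowered in each set, led by Taf1d (1.59 ± 0.08), Taf1a (0.73 ± 0.08) and Taf1b (0.52 ± 0.05), all subunits of the SL1 selectivity factor, while Polr1a, the largest subunit of the polymerase, was the one lowered (-0.26 ± 0.07).

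Of 16 other TOP mRNAs, 4 were raised and 1 lowered in the founders (median 0.10) and 5 raised and 0 lowered in the F1 crosses (median 0.17). Eif3e (0.55 ± 0.09), Npm1 (0.50 ± 0.07) and Nap1l1 (0.44 ± 0.08) changed most, and Eef2, the translocation factor of elongation, fell (-0.17 ± 0.04). Of 19 regulators of ribosomal protein and TOP mRNA output, 6 were raised and 4 lowered in the founders and 4 and 4 in the F1 crosses. Myc, which drives ribosomal genes, rose by 1.37 ± 0.04 and 1.21 ± 0.05, and Sesn2, an inhibitor of mTOR complex 1, by 1.15 ± 0.05 and 1.20 ± 0.05. Eif4ebp2, a repressor of cap-dependent translation, fell by 0.90 ± 0.10 and 1.00 ± 0.10. Mtor (-0.43 ± 0.09) and Rptor (-0.33 ± 0.07) were also lowered in the founders, as they were in the F1 crosses.

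Of 7 ribosomal proteins outside the naming rule, Rpl22l1, the paralogue of Rpl22, was raised by 0.68 ± 0.13 in the founders and 0.69 ± 0.13 in the F1 crosses (adjusted p = 4.2e-05 and 0.00012, limma), where Rpl22 itself was at 0.03 ± 0.13 and 0.37 ± 0.13. Rpl7l1 was raised in both sets (0.18 ± 0.04 and 0.19 ± 0.05), and Rps3a1 in the F1 crosses (0.39 ± 0.10). Among the 76 mitochondrial ribosomal protein genes, 12 were raised and 9 lowered in the founders (median -0.01) and 14 raised and 4 lowered in the F1 crosses (median 0.08), with Mrpl34 (-0.53 ± 0.09), Mrps21 (-0.47 ± 0.10) and Mrpl49 (-0.46 ± 0.06) changed most in the founders.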

How the data were processed

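The study sequenced poly(A) RNA of 13 MEF genotypes as single-end reads. Reads were mapped by the authors with TopHat 1.4.1 against a genome made for each strain. The authors removed outlying libraries by principal components and normalised by TMM in edgeR. The authors call the deposited values FPKM, but their low values show them to be a signal of whole reads divided by a scaled library size, not by length: reads were recovered in 66 of 68 libraries, where 100% of values came out whole (within 0.05 of a step). Here, log2(value + 0.1) was fitted with limma 3.58.1 (R 4.3.3; trended prior) after dropping genes that did not reach 0.5 in 2 or more libraries, within each genotype and per set, with Benjamini-Hochberg adjustment over all genes. Fold changes are on that scale and understate low genes. The edgeR 4.0.16 quasi-likelihood test on recovered reads, an alternative added after seeing the data, called 5231 genes in the founder mean and 4651 in the F1 mean, 5 of them members in each. The design had assumed FPKM, and the test was kept. The F1 tables also hold 3 rows of no gene (no feature, 7.22 to 12.7% of a library's summed value, ambiguous, 0.678 to 1.02%, and not unique), which were left out here but are part of the F1 scaling, so levels were compared within founders or within F1 crosses only. Scripts were tested on simulated data. Sequences are from RefSeq and gene positions from GENCODE (GRCm38.p6). The members and lists were chosen with earlier results of these data known. Named members were the 5 highest and 5 lowest founder changes, the 5 smallest interaction and basal p, those called 1.5-fold in a genotype, 10 with known other roles, those failing the filter and the 3 highest per kilobase, with the 3 largest changes of each list. Others named were chosen after their values were seen. Results for a few genes are not reported here.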

Additional observations from a re-analysis of the deposited data

How the results depend on the processing

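The interaction counts stayed at 0 members in every alternative run, and Rpl39l stayed called for its basal level. Other counts moved, and the cause was not tested. The share of all genes called moved too, and for several mean effects it is given in brackets or above. Counts within genotypes and over left-out libraries mostly stand without it here. Those counts do not tell a change in the members from a change in all genes. Scaling to equal totals gave 4 raised members in the founder mean (21.5% of all genes). In the F1 mean it gave 10 raised and 0 lowered (18.8% and 16.1%). Within genotypes 16 were raised by 1.5-fold (7 in the report). Without the filter, 27 in place of 41 were lowered within genotypes at the 0.05 limit. Without a trended prior, 0 were lowered in the F1 mean (18.2% of all genes). Within genotypes that fit gave 0 raised and 0 lowered by 1.5-fold, and 21 raised and 10 lowered at the 0.05 limit. One fit over each set gave 0, 0, 13 and 1. The GC and length correction gave 6 raised and 18 lowered (founders), 9 and 14 (F1), 7 and 4 basal calls, and within genotypes 0 raised by 1.5-fold and 26 at the 0.05 limit. An adjusted p limit of 0.05 gave 6 raised and 14 lowered (founders) and 12 and 4 (F1). The share of all genes at that limit is not given here. Whether replicate numbers pair the libraries could not be told (7 of 29 control and TM pairs correlated above 0.1). With the replicate block 0 members were raised and 0 lowered in the founder mean (11.8% and 10.8% of all genes). In the F1 mean 3 were lowered (16.9%). Within 11 genotypes the block gave 3 raised and 6 lowered by 1.5-fold, and 25 raised and 44 lowered at the 0.05 limit. Without the block these counts were 7, 3, 48 and 26 in the same genotypes. B6 and CAST could not be fitted with the block, since their control and TM libraries share fewer than 2 numbers. Alternatives chosen after seeing the data were these. Leaving out the libraries that stood apart gave 2 raised and 18 lowered (founders) and 11 and 0 (F1). Leaving out TM libraries numbered 3 gave 2 and 11 in the founder mean (20.5% and 21.5% of all genes). Keeping only those gave 2 raised and 4 lowered (12.9% and 14.5% of all genes). By edgeR on recovered reads (38 founder and 28 F1 libraries) Rps28 lost its founder call. That test lowered 0 members in the F1 mean (19% of all genes) and 1 by 1.5-fold within genotypes. Leaving out 1 library at a time, founder counts ran from 1 to 6 raised and 5 to 18 lowered, F1 counts from 1 to 15 raised and 0 to 2 lowered, and founder basal calls from 1 to 2. Within genotypes they ran from 0 to 48 raised and 0 to 32 lowered by 1.5-fold, and from 25 to 87 and 29 to 108 at the 0.05 limit. Among the named members, the sign turned only where the mean change was called in neither case. In the founders Rpsa stood at 0.015 (equal totals), 0.018 (replicate block), 0.018 (edgeR) and 0.075 (only TM numbered 3), and after the correction Rplp1 stood at 0.0025, Rps12 at 0.037, Rpl22 at -0.064, Rps3 at -0.085, Rps27l at -0.080 and Rpl5 at -0.10. Rps27l stood at -0.036 without the libraries apart, Rpl22 at -0.10 and Rps3 at -0.032 without TM numbered 3, and Rpl11 at 0.024 with only those. In the F1 crosses Rpl36 stood at 0.039 and Rpl11 at -0.034 after the correction, Rpl36 at 0.0098 without the libraries apart and Rpl11 at -0.0045 by edgeR. Leaving out 1 library, F1 ranges were -0.039 to 0.089 (Rpl11), -0.13 to 0.065 (Rpl36), -0.025 to 0.15 (Rplp1) and -0.19 to 0.034 (Rps12), and founder ranges -0.033 to 0.083 (Rpl22), -0.024 to 0.079 (Rps27l), -0.014 to 0.076 (Rps3) and -0.051 to 0.053 (Rpsa). Depth limits Rpl39l, with as few as 1 read in an xWSB library.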

Other observations

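Rows at the edge of the naming rule were left out of the counts above. Rps4l carries a name of the rule but is annotated as a transcribed processed pseudogene. In the F1 tables, a row for reads that aligned to more than 1 place held between 7.13% (x129 TM 3) and 12.5% (xWSB control 1) of the summed value of all rows, non-gene rows included, and such a row is not part of the founder tables used here. The 2 founder libraries whose reads were not recovered were PWK TM 2 and WSB TM 1.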
